A study of Homo sapiens with 4 samples.

Results

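Aminoacyl-tRNA synthetases and the scaffold proteins of their complex were followed through total RNA and ribosome-protected fragments (RPF, or footprints) of SW480 cells. SW480 is an established human colorectal adenocarcinoma line. Members were the genes whose symbol in the count files matched a list of 39 names. The files held 38 of these among 19192 genes, and QARS was not analysed here. They comprised 19 cytosolic synthetases, 16 mitochondrial synthetases with symbols ending in ARS2, and the scaffold genes AIMP1, AIMP2 and EEF1E1. The wild-type cells (genotype label wild type) were compared with cells labelled IMP1-/-, in which the RNA-binding protein IMP1, encoded by IGF2BP1, should be missing. Each genotype had 1 RNA and 1 RPF library, each made from 3 pooled culture plates, and no treatment is named for either. The labels do not say how many clones the IMP1-/- cells represent, so genotype cannot be told apart from clone or culture. One label of wild-type RNA spells the line SW840. The other labels of that library say SW480, and it was treated as such.

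A synthetase joins 1 amino acid to its matching tRNAs, and the ribosome draws on these charged tRNAs at every codon. In human cells the cytosol and the mitochondrion mostly use separate enzymes, all of them encoded in the nucleus. GARS and KARS each supply both compartments, EPRS charges both glutamate and proline tRNAs, and FARSA and FARSB are the subunits of a single phenylalanine enzyme. Several cytosolic enzymes sit in a multisynthetase complex held together by AIMP1, AIMP2 and EEF1E1. Many cytosolic synthetase genes are known targets of ATF4, the transcription factor of the amino acid response.

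Library totals lay between 3778316 and 5551479 reads. IGF2BP1 had 598 and 571 reads in wild-type and knockout-labelled RNA, and 285 and 149 in the RPF libraries. Counts over a whole gene cannot tell whether its protein is lost, so the second genotype is called knockout-labelled throughout. All 9 epithelial markers were detected in every library, with summed levels of 8612 and 6107 CPM (reads per 1000000 in the library) in wild-type and knockout-labelled RNA. The 11 markers of other cell types in the files summed to 103 and 58.0 CPM in RNA and to 179 and 122 CPM in RPF, mostly from ENO2. Of these 11, 4 had 10 or more reads in wild-type RNA, knockout-labelled RNA and knockout-labelled RPF, and 2 in wild-type RPF. The fibroblast gene COL1A1 had 10 and 26 reads in RNA (wild type, then knockout-labelled) and 1 and 10 in RPF. Another fibroblast gene, DCN, and the leukocyte gene PTPRC were at 0 in all 4 libraries.

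Changes are log2 ratios of knockout-labelled to wild type, each with a 95% interval that covers counting error only. Calls required a difference of 1.5-fold or more, in either direction, with an interval that left out no change. They were made where the libraries of one kind had 50 reads or more together. All 38 members passed that minimum in RNA and in RPF. No difference has a replicate check, and fewer cells with a transcript cannot be told apart from less transcript per cell.

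Cytosolic synthetase RNA was called higher for 7 of 19 enzymes and lower for 0, whereas 16.2% of all measured genes were called higher and 17.8% lower. The median change of the 19 was 0.17, against −0.01 for all genes. Together they took 0.352% of wild-type and 0.493% of knockout-labelled RNA reads, a scaled ratio of 1.38 (1.36 to 1.41), which was 1.30 without WARS. WARS, the tryptophan enzyme (chromosome 14, 100334479 to 100375347, GRCh38), is also known as a gene induced by interferon gamma. It had 877 reads in wild-type and 2519 in knockout-labelled RNA, and 1273 and 4212 footprints. Both ratios exceeded 3-fold, at 1.67 (1.56 to 1.79) in RNA and 1.73 (1.63 to 1.82) in RPF, and it was the only cytosolic member past 2-fold in RNA, a line that 6.39% of genes passed upward and 8.35% downward.

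The serine enzyme SARS (chromosome 1, 109213918 to 109238120) had 1137 and 1931 reads in RNA and 1631 and 3328 in RPF. For the leucine enzyme LARS, which also serves as a leucine sensor upstream of mTOR, the counts were 873 and 1370 in RNA and 1179 and 2427 in RPF. Both were called higher in each kind of library, with RPF ratios of 2.04-fold and 2.06-fold. The other enzymes called higher in RNA and RPF were CARS for cysteine (693 and 1031 reads in RNA, 732 and 1113 in RPF), MARS for methionine (1609 and 2325, then 1986 and 3486) and EPRS (851 and 1204, then 907 and 1612). Their RNA changes ran from 0.65 to 0.72 and their RPF changes from 0.60 to 0.83. In RPF the CARS ratio was 1.52-fold, near the 1.5-fold line, and those of MARS and EPRS were 1.75-fold and 1.78-fold. GARS, the glycine enzyme, had 2627 and 3602 reads in RNA, a change of 0.61 (0.53 to 0.68), and its 3526 and 4751 footprints gave 0.43. AARS, the alanine enzyme, stood on the other side of the line in each measurement. Its RNA change was 0.56 (892 and 1182 reads) and its footprint change, with 1194 and 2067 reads, was 0.79 (0.69 to 0.90).

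**Figure D1:**
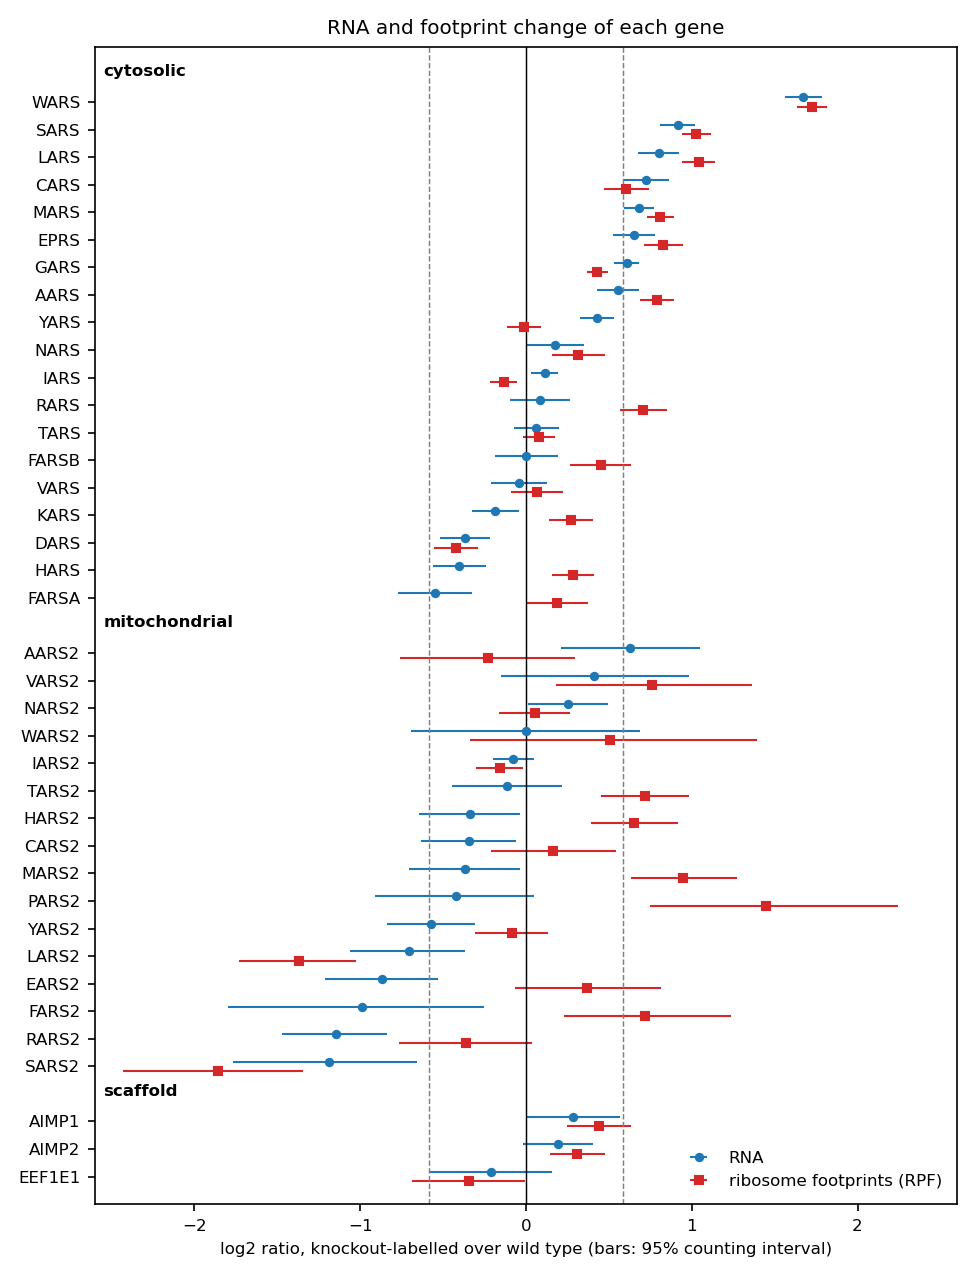
Each row is a gene, with its RNA change (blue circles) and footprint change (red squares) on a log2 axis, bars for the 95% counting interval and dashed lines at 1.5-fold. Cytosolic enzymes lie from −0.55 to 1.67 in RNA with none called lower, while 13 of 16 mitochondrial enzymes lie below 0 in RNA and 10 of 16 above 0 in footprints.

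At the other end of the cytosolic group, RNA of FARSA, the catalytic subunit of the phenylalanine enzyme, went from 448 to 276 reads, a change of −0.55 (−0.77 to −0.33). Its partner subunit FARSB had 488 and 440 reads, a change of 0.00. Neither was called, although the intervals of the subunits did not overlap. HARS for histidine (796 and 542 reads, −0.40), DARS for aspartate (869 and 607, −0.37) and KARS (911 and 722, −0.18) were also below 0 without being called. YARS for tyrosine had a change of 0.43 (0.32 to 0.53). NARS, IARS, RARS, TARS and VARS ranged from −0.04 to 0.17.

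An ATF4 target list, drawn up from general knowledge but with earlier results of these data known, held 12 cytosolic enzymes. Of these, 7 were called higher in RNA, beside 16.2% of all genes. All 12 had log2 ratios above 0, with a median change of 0.63. That list holds AARS, CARS, EPRS, GARS, IARS, LARS, MARS, NARS, SARS, TARS, WARS and YARS. Of the other 7 (DARS, FARSA, FARSB, HARS, KARS, RARS and VARS) 0 were called in RNA, and their median was −0.18. Position in the multisynthetase complex gave a smaller gap. Its 7 measured enzymes had a median RNA change of 0.11 with 3 called higher, and the 12 enzymes outside it had 0.30 with 4 called higher. By catalytic fold, the 8 class I enzymes had a median of 0.56 and the 10 class II enzymes 0.03, with EPRS left out because it carries both. These splits use the same genes and are descriptions.

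The promoters of these genes were searched for the C/EBP-ATF response element, the composite site to which ATF4 binds, because ATF4 is known to act through it and 7 of the 12 ATF4-listed enzymes were called higher in RNA. The letters TGATGNAA were sought on both strands in RefSeq windows (GRCh38.p14) from 250 bases before to 50 after the gene start. A window was found for 32 members, of which 26 held the start of the transcript listed in the count files. The letters occurred in 5 of 15 cytosolic windows (33.3%), 1 of 14 mitochondrial windows (7.14%) and 0 of 3 scaffold windows, compared with 2.5% of 13983 windows of genes in the count files. All 5 cytosolic matches were in the ATF4-listed enzymes, of which 10 had a window, and the other cytosolic enzymes had 0 matches in 5 windows. Known ATF4 targets made up that list, so this split is a description, and binding of ATF4 to these sites was not tested. The matching stretches are shown 5′ to 3′ on the gene's strand, with the matched letters in capitals and at most 30 bases after the start.
AARS: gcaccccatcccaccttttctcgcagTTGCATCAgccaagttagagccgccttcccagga
GARS: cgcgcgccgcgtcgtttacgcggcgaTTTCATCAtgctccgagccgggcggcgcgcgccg
IARS: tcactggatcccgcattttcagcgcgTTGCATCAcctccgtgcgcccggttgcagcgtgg
MARS: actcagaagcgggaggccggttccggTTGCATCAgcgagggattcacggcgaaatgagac
NARS: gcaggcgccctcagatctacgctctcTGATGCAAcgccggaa
YARS2: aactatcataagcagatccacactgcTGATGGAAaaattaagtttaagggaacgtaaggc

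The AARS, IARS, MARS and NARS stretches contain the same 8 letters, TTGCATCA or its reverse complement TGATGCAA. The AARS stretch is at chr16:70289660-70289719 (minus strand), with the match beginning 187 bases before the start. That of GARS is at chr7:30594819-30594878 (plus), 33 bases before. IARS is at chr9:92293677-92293736 (minus), MARS at chr12:57488038-57488097 (plus) and NARS at chr18:57621807-57621848 (minus), with matches beginning 13 and 4 bases before the start in IARS and MARS and 14 after it in NARS. The YARS2 stretch is at chr12:32756061-32756120 (minus), 197 bases before the start. Having these letters and being called higher did not coincide gene by gene. GARS and MARS were called higher in RNA, AARS was not, and IARS and NARS had changes of 0.11 and 0.17. WARS, SARS, EPRS and CARS were called higher with no match in this window. No window was found for the ATF4-listed LARS, also called higher in RNA, or for YARS. The CARS window does not hold the start of the listed transcript, and for NARS the same is true.

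Of the 16 mitochondrial enzymes, 5 were called lower in RNA, 1 was called higher and 10 were not called, while 17.8% of all genes were called lower and 16.2% higher. Their median change was −0.36. The cytosolic median exceeded it by 0.53. Their summed share of RNA was 0.0665% of wild-type reads, against 0.0557% in the knockout-labelled library, a scaled ratio of 0.826 (0.785 to 0.868). SARS2, the mitochondrial serine enzyme (chromosome 19, 38915266 to 38930896), had 102 and 40 reads, which left 43.8% of wild type. RARS2, the arginine enzyme (chromosome 6, 87514378 to 87590003), had 296 and 120 reads, or 45.1%. For EARS2, which charges glutamate, there were 219 and 108 reads (54.9%), for LARS2 200 and 110 (61.2%) and for FARS2 49 and 22 (50.4%). AARS2 was the enzyme called higher, with 84 and 117 reads and a change of 0.63 (0.21 to 1.05). IARS2, the most abundant mitochondrial enzyme, had 1157 and 988 reads and a change of −0.08 (−0.20 to 0.05). YARS2, at −0.57 (312 and 189 reads), lay just inside 1.5-fold. The asparagine enzyme NARS2 (276 and 296 reads) and the valine enzyme VARS2 (50 and 60) had ratios above 1, at 0.25 and 0.41. TARS2, HARS2, CARS2, MARS2 and PARS2 lay from −0.42 to −0.11, and WARS2, with 40 and 36 reads, was at 0.00; none of these was called.

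Footprints of mitochondrial enzymes split in both directions. There were 6 of 16 called higher and 2 lower, with a median change of 0.27, while 19.0% of all genes were called higher and 20.1% lower. PARS2, the mitochondrial proline enzyme, went from 22 footprints to 61, and MARS2, for methionine, from 125 to 242. TARS2, VARS2, FARS2 and HARS2 were also called higher, with ratios from 1.57-fold to 1.69-fold. LARS2 footprints went from 246 to 95, leaving 38.7% of wild type, and SARS2 footprints from 139 to 38, leaving 27.6%. In these 2 genes RNA and footprints were both called lower. At 2-fold, PARS2 was the mitochondrial enzyme higher in RPF and LARS2 and SARS2 those lower, beside 9.00% and 9.87% of all genes. The cysteine enzyme CARS2 (115 and 129 footprints), NARS2 (351 and 364), IARS2 (880 and 788) and YARS2 (349 and 329) had changes from −0.16 to 0.16. WARS2 had 21 and 30 footprints, too few to place its change of 0.50 (−0.34 to 1.39) on either side of 0. Summed footprints of the group did not differ detectably, with a ratio of 1.04 (0.987 to 1.09).

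Cytosolic footprints were called higher for 8 of 19 enzymes and lower for 0, whereas 19.0% of all measured genes were called higher and 20.1% lower. The median change of the 19 was 0.43, against −0.0006 for all genes. The summed share of the 19 went from 0.632% of wild-type to 0.932% of knockout-labelled footprints, a ratio of 1.47 (1.45 to 1.5). The 2 enzymes called in footprints and not in RNA were AARS and RARS. RARS, the arginine enzyme, had 530 and 506 reads in RNA and 644 and 1053 in RPF, changes of 0.08 and 0.71. FARSB (421 and 576 footprints), NARS (573 and 714), HARS (913 and 1113), KARS (829 and 1001) and FARSA (455 and 518) had changes from 0.19 to 0.45, not called. TARS (1775 and 1874), VARS (644 and 674), YARS (1534 and 1524) and IARS (2572 and 2346) lay between −0.13 and 0.08. DARS footprints had the lowest change of the group at −0.42 (1112 and 831 reads). The scaffold genes were not called in RNA, in RPF or in their ratio. AIMP1 had 203 and 223 reads in RNA and 387 and 525 in RPF, and AIMP2 364 and 375, then 537 and 666. EEF1E1 had 144 and 112, then 165 and 130, and was the only scaffold gene with ratios below 1.

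The change in translational efficiency (TE) is the footprint change minus the RNA change. It was called higher for 7 of 16 mitochondrial enzymes and lower for 2, with a median of 0.51, and higher for 3 of 19 cytosolic enzymes and lower for 0, with a median of 0.13. Of all genes 15.8% were called higher and 13.9% lower, and the median was 0.03. Because few reads widen the spread of a ratio, the mitochondrial count was also set beside the 6615 genes with 127 to 1287 reads over the 4 libraries, the range of these enzymes other than IARS2. Of those genes 17.7% were called higher and 17.2% lower in TE, 17.1% and 17.9% in RNA, and 20.5% and 21.2% in RPF. With 1 library per group the contrast of RPF with RNA has 0 residual degrees of freedom, so a TE change is a value without a test.

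PARS2 had the largest TE change of any member, at 1.87 (1.04 to 2.71), with RNA going from 94 to 63 reads while footprints went from 22 to 61. FARS2 followed at 1.71 (0.84 to 2.57), MARS2 at 1.32 (0.87 to 1.77) and EARS2 at 1.24 (0.70 to 1.78). These 4 were past 2-fold, as were 6.47% of all genes upward and 6.27% downward. HARS2, TARS2 and RARS2 had 0.99, 0.83 and 0.79. In RARS2 and EARS2 this came with called RNA decreases and footprints that were not called (122 and 95, 78 and 101 reads). AARS2 ran opposite, at −0.85 (−1.50 to −0.21), since its RNA was higher while its footprints went from 68 to 58. LARS2 had −0.66 (−1.14 to −0.18). Of the cytosolic enzymes, FARSA (0.73), HARS (0.69) and RARS (0.62) were called higher in TE. These 3 made up 15.8% of the 19 enzymes, beside 15.8% of all genes. Each of these 3 is outside the ATF4 list, whose 12 enzymes had 0 called in TE. YARS had the lowest cytosolic value, −0.44 (−0.58 to −0.29).

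Within each genotype, cytosolic enzymes had the higher median of footprints per RNA, with ranges that overlapped those of the mitochondrial enzymes. The counted region is not given, and how far bases outside the coding sequence shift these ratios was not tested. The TE level, the log2 ratio of RPF CPM to RNA CPM, had a median of 0.75 over the 19 cytosolic enzymes and 0.24 over the 16 mitochondrial enzymes in wild type, while the median over 9598 genes was 0.11. All 19 cytosolic enzymes were above the all-gene median in wild type and again in the knockout-labelled libraries, where their median was 0.86. The mitochondrial enzymes had 10 of 16 above it in wild type, and 11 of 16 above that of the knockout-labelled libraries, where their median was 0.32. Of 16 pairs for the same amino acid, the cytosolic enzyme had the higher TE level in 14 in wild type. It did so in 12 of the knockout-labelled pairs, where FARS2 (2.41) exceeded every cytosolic enzyme. Cytosolic values spanned 1.20 log2 units in wild type, from 0.34 for FARSB to 1.54 for TARS. Mitochondrial values spanned 2.52, from −1.52 for PARS2 to 1.00 for SARS2. In wild type 4 enzymes had TE levels below 0 beyond their counting intervals, namely PARS2 (−1.52), EARS2 (−0.93), RARS2 (−0.72) and CARS2 (−0.53). Their knockout-labelled levels were 0.34, 0.29, 0.05 and −0.04, from the same libraries as the TE changes. TARS, the threonine enzyme, had 1.54 in each genotype.

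**Figure D2:**
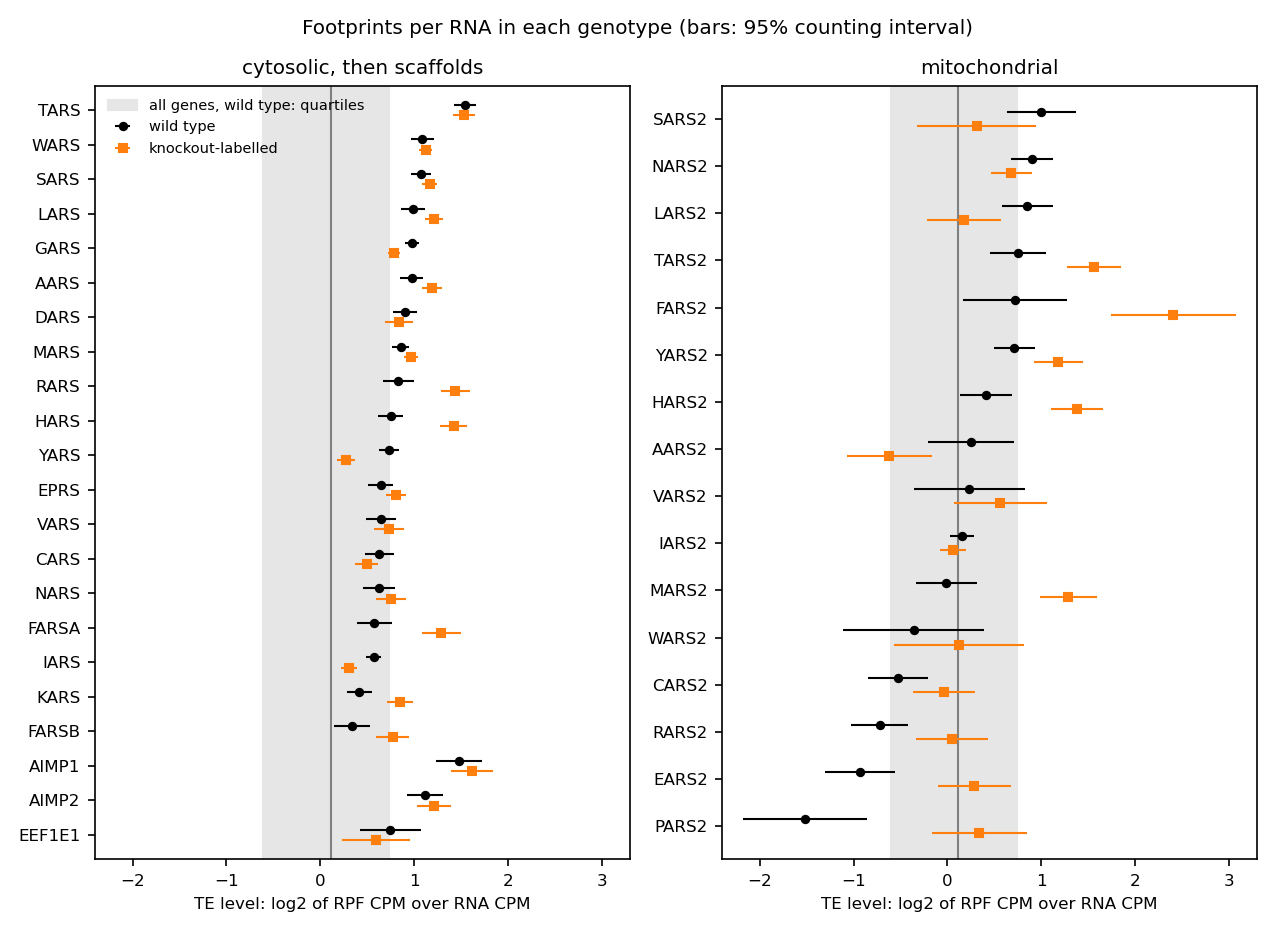
Each row is a gene, with its log2 ratio of footprint CPM to RNA CPM in wild type (black circles) and in the knockout-labelled libraries (orange squares), bars for the 95% counting interval, the wild-type quartiles of all genes in grey and their median as a line. Every cytosolic enzyme lies right of the line in both genotypes, while mitochondrial enzymes spread from −1.52 to 1.00 in wild type.

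Levels per transcript length placed cytosolic above mitochondrial enzymes in all 15 amino acid pairs that could be compared (EPRS stood for glutamate and for proline, and VARS2 had no length). The ratio of the group medians in CPM per kb was 5.33 and 6.98 in RNA (wild type, then knockout-labelled) and 5.61 and 8.75 in RPF. GARS had the highest level in wild-type RNA, 179.7 CPM per kb. SARS, MARS and IARS came next with 111, 99.8 and 98.3. GARS stood apart from SARS, while SARS overlapped MARS and MARS overlapped IARS in their counting intervals. VARS was lowest at 25.3, with a counting interval that overlapped that of FARSB (26.1). In knockout-labelled footprints WARS led with 536 CPM per kb, ahead of GARS (477) and SARS (476), which did not differ beyond counting error. In wild type WARS had 162 CPM per kb in footprints, and its RNA levels were 76.0 and 246 (wild type, then knockout-labelled). IARS2, at 58.5 in wild-type RNA, stood near the cytosolic median of 58.8. WARS2 was lowest at 2.57, with a counting interval that overlapped that of AARS2 (3.93).

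The difference in RNA change between partners was 2.1 (1.57 to 2.64) for serine, 1.67 (1.02 to 2.33) for tryptophan, 1.52 (1.16 to 1.87) for EPRS and EARS2 and 1.51 (1.15 to 1.87) for leucine, with intervals that overlapped. The SARS to SARS2 ratio of levels per kb was 12.4 in wild-type RNA but 53.6 in the knockout-labelled library, and 13.0 and 97.3 in RPF. The WARS to WARS2 ratio was 29.5 and 94.2 in RNA, resting on 40 and 36 reads for WARS2. LARS to LARS2 went from 4.34 to 12.4 in RNA and from 4.77 to 25.4 in RPF. Across 16 pairs the cytosolic RNA change exceeded the mitochondrial one in 12, with the counting interval of the difference above 0 in 10 and below 0 in 0. The 4 pairs in which the RNA difference was below 0 were histidine, asparagine and alanine, from −0.08 to −0.07, and valine at −0.45 (−1.02 to 0.11), all with intervals that included 0. For footprints 8 intervals were above 0 and 4 below, and for TE 3 were above and 7 below.

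**Figure D3:**
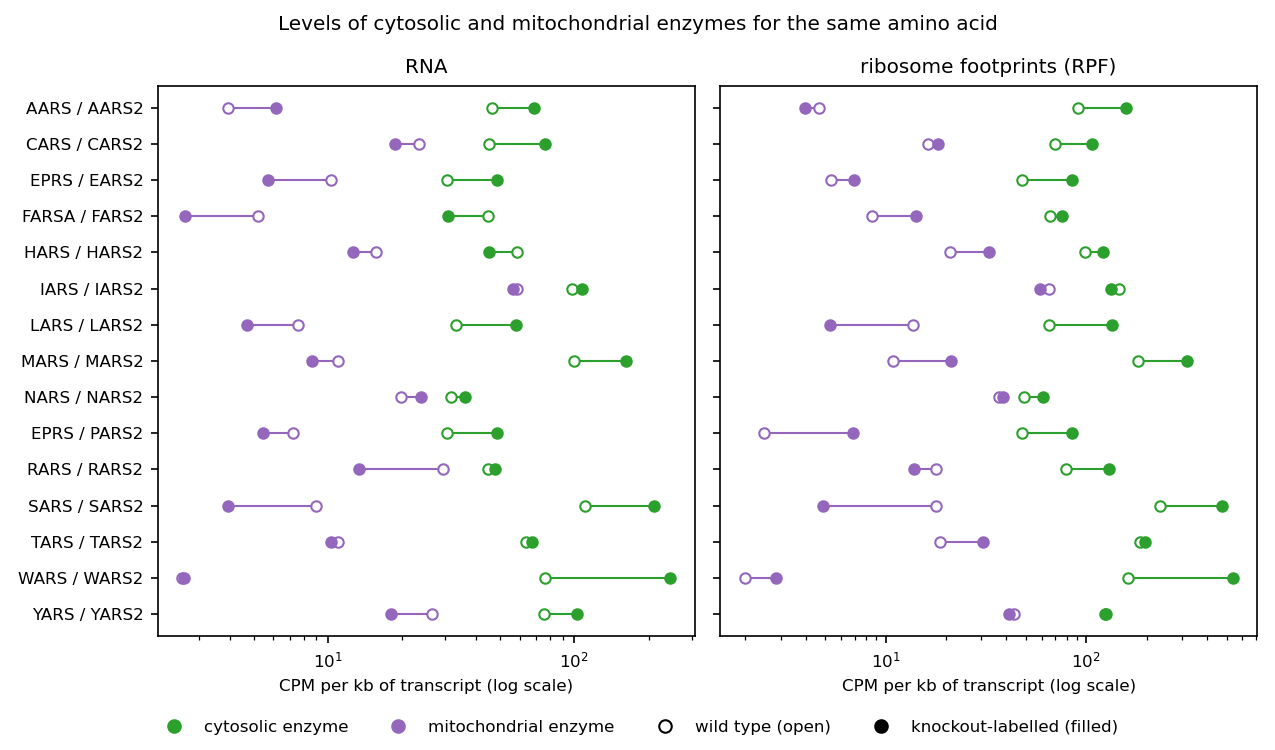
Levels of RNA (left) and footprints (right) in CPM per kb of transcript on a log axis, with 1 row for each cytosolic and mitochondrial pair, open circles for wild type and filled circles for the knockout-labelled libraries. Cytosolic enzymes (green) lie right of their mitochondrial partners (purple) in all 15 rows, and SARS and SARS2 lie farther apart in the knockout-labelled libraries than in wild type in both panels.

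Other genes of tRNA charging were taken from lists of names. Mitochondrial glutaminyl-tRNA is made by an amidotransferase acting on the product of EARS2, and its subunit genes GATB, GATC and QRSL1 were not called in any measurement (RNA changes of 0.09, −0.40 and −0.02). Among 24 partners of mitochondrial tRNA and translation, 1 was called higher and 1 lower in RNA and 4 higher and 0 lower in RPF. The share higher in RPF, 16.7%, was near the 19.0% of all genes. TRIT1, a tRNA isopentenyl transferase, was the member lower in RNA (266 and 153 reads) and had a TE change of 1.41. The translation factors GFM2, MTIF2 and MTIF3 had RPF changes of 0.89, 0.64 and 0.74. TUFM, which delivers charged tRNA to the mitochondrial ribosome, had changes of −0.30 in RNA and −0.14 in RPF.

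Cytosolic elongation factors carry charged tRNA to the ribosome or move it along. Of 6 genes, 4 were called higher in RPF and 5 higher in TE, beside 19.0% and 15.8% of all genes. In RNA 1 was called lower, or 16.7% of the list, near the 17.8% of all genes. EEF2 had 14628 and 13090 reads in RNA and 5631 and 10853 in RPF, and EEF1A1 54491 and 45500, then 18265 and 28933. EEF1D was lower in RNA at −0.77 and had 0.24 in RPF. The TE median of this list was 0.86. tRNA maturation and export genes had 9 of 32 called lower and 1 higher in RNA, beside 17.8% and 16.2% of all genes. In RPF 8 of 33 were higher and 4 lower, beside 19.0% and 20.1%, and in TE 9 of 32 higher and 3 lower, beside 15.8% and 13.9%. The nuclease subunit genes POP4 (133 and 42 reads) and RPP38 (55 and 29) were lower in RNA, and RPP38 had 32 and 95 footprints.

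**Figure D4:**
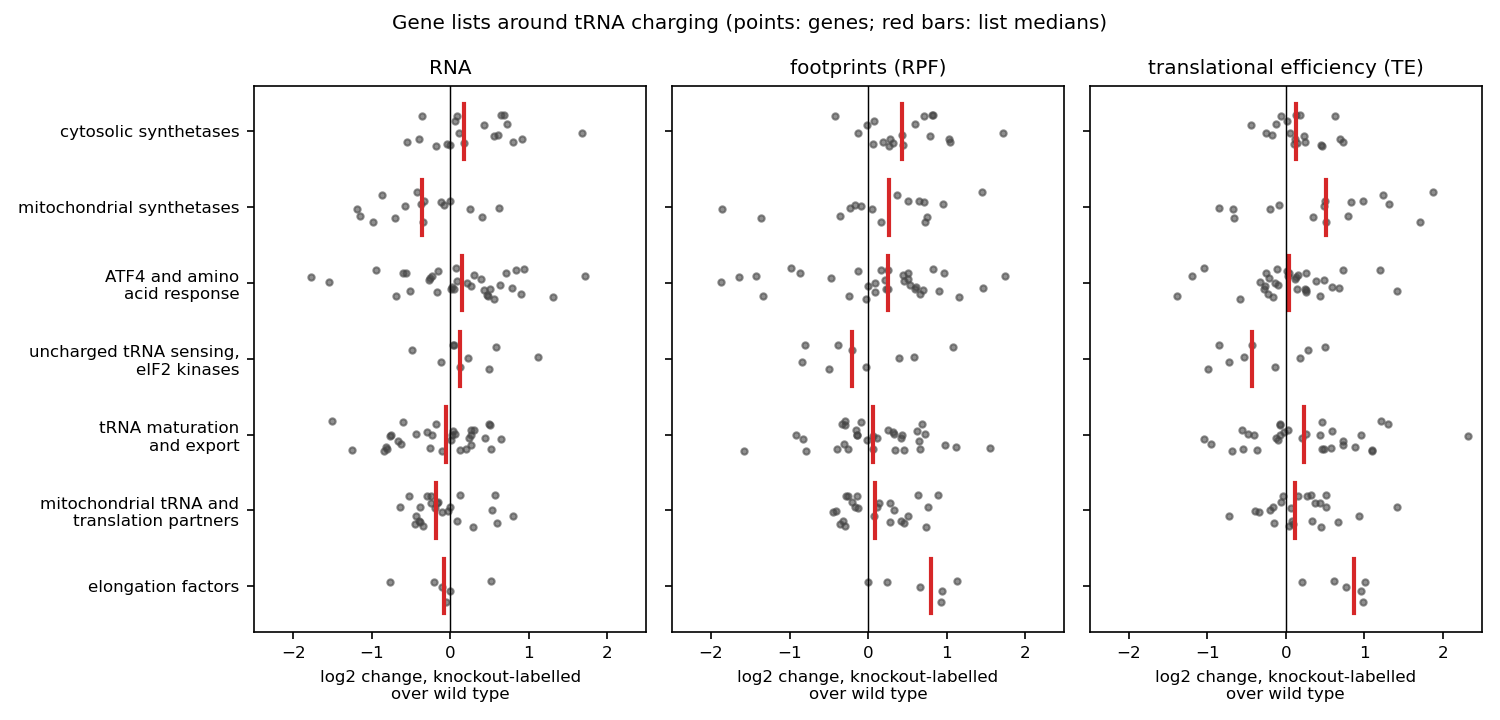
Points are genes and red bars list medians of the log2 change in RNA (left), footprints (middle) and translational efficiency (right) for the members and for lists around tRNA charging. The TE medians are 0.86 for elongation factors, 0.51 for the mitochondrial synthetases and 0.13 for the cytosolic synthetases.

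The amino acid response list without synthetases had 7 of 34 called higher and 5 lower in RNA, and 10 of 33 higher and 6 lower in RPF. The RNA shares, 20.6% and 14.7%, were near the 16.2% and 17.8% of all genes, and the RPF shares of 30.3% and 18.2% stood beside 19.0% and 20.1%. ATF4 itself had 2173 and 2403 reads in RNA and 1483 and 2028 in RPF, changes of 0.30 and 0.45, neither called. Asparagine synthetase ASNS had an RNA change of 1.71, close to that of WARS, while the amino acid transporter SLC1A5 and the lipoprotein receptor VLDLR had −1.77 and −1.54. The pseudokinase gene TRIB3 (1589 and 2665 reads) and the stress sensor SESN2 (179 and 265) were higher in RNA and RPF. EIF2AK4, the kinase GCN2 that binds uncharged tRNA, had an RNA change of 0.04 and an RPF change of −0.39, neither called. The other eIF2 kinases EIF2AK1 and EIF2AK2 were called lower in RPF, at −0.84 and −0.80, and EIF2AK3 (PERK) was called higher, at 1.12 in RNA and 0.59 in RPF.

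Some member counts may include reads of another gene, since the counting of strand and of multiply mapping reads is not given in the sources used here. In GENCODE 29, exons of 8 members shared bases with another gene in the count files. They were HARS and HARS2 with each other, HARS also with WDR55 and HARS2 with ZMAT2, MARS with DDIT3, YARS with S100PBP, AARS2 with TMEM151B, SARS2 with MRPS12, AIMP2 with EIF2AK1, and EEF1E1 with its readthrough EEF1E1-BLOC1S5. The share was largest for AIMP2 (43.4% of the transcript) and EEF1E1 (36.5%). SARS2 also shared 72.5% with a readthrough gene that has no row in the count files. WARS, GARS, AARS and KARS are among the members with named pseudogenes.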

How the data were processed

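Per the labels, RNA fragments of 18 to 50 nt and footprints of 18 to 34 nt were sequenced, 1 library per group, after ligation of linkers with molecular identifiers. HISAT2 2.1.0, Bowtie 1.1.2 and cutadapt 1.10 are named with GRCh38 in the submitters' processing notes. What each did, which region was counted and whether identifiers were collapsed is not given in the sources used here. Each file the authors deposited holds whole-number counts, with 1 Ensembl transcript per gene. Of 19192 transcripts, 19176 (99.9%) were found in GENCODE 29, the source of coordinates and lengths.

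From these counts, ratios were computed after TMM scaling within a library kind (edgeR 4.0.16, R 4.3.3), with a prior count of 0.5 scaled to library size. RNA and RPF intervals are exact conditional 95% intervals, and TE intervals use summed reciprocal counts. They cover counting error only and treat each read as an independent count. Reads after PCR are not molecules, so the intervals can be too narrow. A count of 0 allows 3 reads, or 0.540 to 0.794 CPM. pandas 2.3.3, SciPy 1.17.1 and NumPy 2.4.6 under Python 3.11.15 did the rest, and the calculation was tested on simulated data. Size factors of DESeq2 1.42.0 were an alternative.

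Members and lists were chosen with earlier results of these data known. All members are accounted for. From each other list up to 4 called genes per comparison with the interval bound farthest from no change could be named, and ATF4, EIF2AK4 and ASNS. GATB, GATC, QRSL1, TUFM, TRIB3 and SESN2 were named for their roles after their values were seen.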

Additional observations from a re-analysis of the deposited data

Results flagged for a closer look

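FARS2, the mitochondrial phenylalanine enzyme, was the member called in opposite directions by the 2 kinds of library. Its RNA went from 49 reads in wild type to 22 in the knockout-labelled library, and its footprints from 55 to 91, giving a TE change of 1.71. Of 9598 genes, 58 (0.604%) were called lower in RNA and higher in RPF. The difference between the kinds was not tested, as each has 1 library per genotype.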

How the results depend on the processing

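Every group median and every number of members called was recomputed under each alternative. Library totals, DESeq2 size factors, totals without the MTRNR2L genes and PLCG2, minimums of 20 reads or none, a prior count of 2, and leaving out GARS and KARS kept each of these within its counting interval or within 1.5 times. Calls of single genes were also kept under these, apart from AARS, which was called higher in RNA (0.60) without the MTRNR2L genes and PLCG2. With a minimum of 200 reads, 11 mitochondrial enzymes remained in RNA and 9 in RPF and TE. Of these, 3 were lower in RNA, 3 higher and 1 lower in RPF, and 4 higher and 1 lower in TE. At that minimum 16.1% of all genes were called lower in RNA. In RPF 16.4% were called higher and 17.8% lower, and in TE 13.2% and 9.76%. With calls at 2-fold, cytosolic enzymes had 1 higher in RNA, 3 in RPF and 0 in TE. Mitochondrial enzymes then had 0 higher and 2 lower in RNA, 1 higher in RPF, and 4 higher and 0 lower in TE. Without the members that share exon bases, an alternative added after seeing the data, 13 mitochondrial enzymes had 0 higher in RNA, 1 lower in RPF and 1 lower in TE. Fewer genes or a higher line account for these by construction. With coding in place of transcript length, the ratio of cytosolic to mitochondrial median levels was 3.97 and 5.64 in RNA and 6.28 and 9.21 in RPF. No paired analysis was possible because each group had 1 library. Depth limits the mitochondrial group, whose median enzyme had 98 to 192.5 reads per library.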

Other observations

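HARS and HARS2, the cytosolic and mitochondrial histidine enzymes, lie head to head on chromosome 5 with 436 bases between the listed starts, and their exons overlap on opposite strands. HARS RNA went from 796 to 542 reads and HARS2 RNA from 219 to 156, changes of −0.40 (−0.56 to −0.24) and −0.34 (−0.64 to −0.04). Their footprint changes were 0.28 and 0.65, and their TE changes 0.69 and 0.99, so the genes of this pair had the same signs in RNA and in footprints. How far shared reads contribute was not tested.

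AARSD1, an alanyl-tRNA editing protein, had 60 and 133 footprints in the wild-type and knockout-labelled libraries, the peptidyl-tRNA hydrolase gene PTRH2 134 and 215, and the D-aminoacyl-tRNA deacylase gene DTD1 254 and 405. All of these were called higher in RPF. Their RNA changes of 0.20, −0.27 and 0.36 were not called.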
